A study of Arabidopsis thaliana with 15 samples.

Results

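Of 22746 probe sets measured in Arabidopsis thaliana roots, 23 showed a late rise with nitrate that ammonium did not give. They were chosen on the group means of log2 expression. The mean at 8 h of nitrate had to lie at least 0.8 log2 above the mean before nitrogen supply. The means at 1.5 h had to lie less than 0.4 above it with either ion, and the 8 h mean with ammonium less than 0.3 above it. The highest group mean had to be at least 6 log2. These conditions use all 5 group means, so every difference between groups given below for a member is a description of what was chosen and carries no test.

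The arrays came from roots of Columbia-0 plants in hydroponics that had reached growth stage 5.10, from which nitrogen was then withheld for 26 h in all groups. The groups were roots 1.5 h and 8 h after addition of 1 mM nitrate, roots 1.5 h and 8 h after addition of 1 mM ammonium, and roots taken just before the addition, with 3 biological replicates each (15 samples). Each sample pooled roots of no fewer than 5 plants, so the spread between samples is between pools. Because no roots were kept without nitrogen to 8 h, the time since the start of supply is part of every difference from the roots before supply.

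Levels are RMA values on the log2 scale, in which 1 unit is a 2-fold difference, and RMA gives no call of presence. A bulk root sample does not tell a change of RNA per cell from a change in the share of a cell type. The 15 libraries had medians of 6.76 to 6.83 log2, and replicates correlated at 0.9935 to 0.9978. Of the root tissue markers, 4 of 16 had a probe set listed for 1 gene. The root beta-glucosidase gene PYK10 stood at 12.87 ± 0.06 at 8 h of nitrate, 12.89 ± 0.03 at 8 h of ammonium and 12.29 ± 0.18 before supply (SD, n = 3 each). The photosynthetic genes LHCB4.1 and RCA, 2 of 17 shoot markers with such a probe set, averaged 6.64 and 6.04 at 8 h of nitrate and 6.44 and 6.07 before supply. Limma called neither of these shoot genes at 8 h of nitrate (adjusted p = 0.24 and 0.9), and neither passed an unadjusted p of 0.05 (0 of 2). At 8 h of ammonium LHCB4.1 was 0.34 ± 0.11 above the roots before supply (limma's adjusted p = 0.044).

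Nitrate is taken up by root transporters, reduced to ammonium by nitrate and nitrite reductase and then built into amino acids, with 2-oxoglutarate as the carbon acceptor. It is also a signal in its own right, and a first wave of transcripts for transport, reduction and reductant supply is known to rise within minutes of its arrival. Later changes reach carbon metabolism, the cell wall and root growth. Ammonium enters the same pathway after the reduction steps, and a difference between the ions holds the effects of both.

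A late rise limited to nitrate was an uncommon pattern among the genes that were high at 8 h of nitrate. In all, 500 probe sets lay at least 0.8 log2 above the roots before supply at 8 h of nitrate with a highest group mean of at least 6. Of these, 416 (83.2%) were already at least 0.4 higher at 1.5 h of nitrate. Of the other 84, 19 were at least 0.4 higher at 1.5 h of ammonium, and 42 were low at 1.5 h with both ions but at least 0.3 higher at 8 h of ammonium. The remaining 23 (4.6%) are the members. Exchanging the ions in the conditions gave the same number, with 23 probe sets late and limited to ammonium. A fall of the same sizes limited to 8 h of nitrate was found for 32 probe sets.

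**Figure D1:**
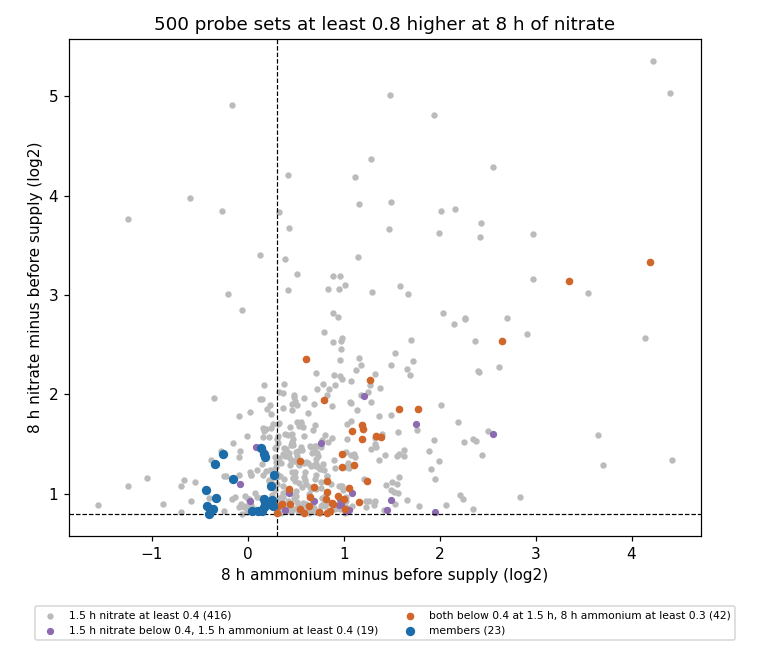
Change from the roots before supply at 8 h of ammonium (horizontal axis, log2) and at 8 h of nitrate (vertical axis, log2) for the 500 probe sets at least 0.8 higher at 8 h of nitrate. Each point is a probe set, coloured by its class with the count in the legend, and dashed lines mark 0.8 and 0.3. The 23 members lie left of 0.3 and between 0.80 and 1.46 on the vertical axis, below many of the 416 early risers.

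Among the 23 members, the difference between 8 h of nitrate and the roots before supply ran from 0.80 to 1.46 log2 with a median of 0.94, against a median of −0.02 over all probe sets. It was at least 1 log2 for 9 members. The members' group means before supply ran from 5.71 to 11.16 log2, and the conditions asked for a highest group mean of at least 6. Their standard deviation within groups had a median of 0.147 log2, against 0.115 for all probe sets. In 22 of the 23, the lowest of the 3 samples at 8 h of nitrate lay above the highest of the other 12 samples, which held for 3.15% of all probe sets. Limma called all 23 higher at 8 h of nitrate than before supply (adjusted p under 0.05), as it did 8.93% of all probe sets. It called 22 higher than at 8 h of ammonium (5.4% of all probe sets) and 22 higher than at 1.5 h of nitrate (5.81%, with 6.05% of all probe sets lower there). The exception in both was XTH20. Since the conditions used these same contrasts, the shares are given only to show the scale.

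The array's annotation listed 1 gene for 9 of the members, several genes for 1 and none for 13. The 9 genes covered sugar transport, the tricarboxylic acid cycle, the cell wall, defence-type proteins, a receptor kinase and enzymes of less certain role. They are described in that order.

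SFP1 (AT5G27350) encodes a sugar porter of the ERD6-like family, membrane proteins that carry monosaccharides. Its level was 9.38, 9.34 and 9.37 log2 at 8 h of nitrate, against 8.06, 8.01 and 8.10 at 8 h of ammonium and 8.20, 8.10 and 8.34 before supply. The 3 nitrate samples lay close together and 0.90 or more above every other sample. The differences were 1.15 ± 0.07 (SE, 2.22-fold) from the roots before supply and 1.31 ± 0.07 from those at 8 h of ammonium. At 1.5 h of nitrate SFP1 was at 8.43, 8.44 and 8.44, which is 0.22 ± 0.07 above the roots before supply, and the rise grew by a further 0.93 ± 0.07 by 8 h.

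AT3G55410 encodes the E1 subunit of the 2-oxoglutarate dehydrogenase complex, the mitochondrial step of the tricarboxylic acid cycle that consumes 2-oxoglutarate. It was at 10.21, 10.39 and 10.27 log2 at 8 h of nitrate, against 9.55, 9.60 and 9.65 at 8 h of ammonium and 9.09, 9.54 and 9.42 before supply. The groups did not overlap, although replicate 1 before supply was low. The rise was 0.94 ± 0.10 over the roots before supply (1.92-fold) and 0.69 ± 0.10 over 8 h of ammonium. Ammonium at 8 h was itself 0.25 ± 0.10 above the roots before supply, near the limit of 0.3.

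XTH20 (AT5G48070) encodes a xyloglucan endotransglucosylase/hydrolase, an enzyme that cuts and rejoins the xyloglucan tethers of the cell wall. Its values were 8.80, 8.46 and 8.58 log2 at 8 h of nitrate, against 7.53, 8.18 and 7.81 at 8 h of ammonium and 7.06, 7.74 and 8.21 before supply. The samples before supply spread over more than 1 log2, and the lowest nitrate value was only 0.05 above the highest of the other 12 samples. With a rise of 0.95 ± 0.24 and values of 0.39 ± 0.24 (nitrate) and 0.28 ± 0.24 (ammonium) at 1.5 h, XTH20 met the conditions in only 8 of the 15 sets that leave out 1 sample. No other member with 1 listed gene met them in so few.

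AT5G14650 encodes a polygalacturonase-type protein, of a family that cleaves pectin in the cell wall. It was at 8.35, 9.01 and 8.61 log2 at 8 h of nitrate, against 7.36, 7.40 and 7.32 at 8 h of ammonium and 7.82, 7.32 and 7.95 before supply. At 1.5 h it was lower with either ion, at 6.09, 6.42 and 6.29 with nitrate and 6.64, 6.41 and 6.17 with ammonium. The early differences were −1.43 ± 0.17 with nitrate and −1.29 ± 0.17 with ammonium, and those 6 samples lay below all the others. By 8 h the gene stood 0.96 ± 0.17 above the roots before supply with nitrate and at −0.34 ± 0.17 with ammonium. From 1.5 h to 8 h of nitrate it gained 2.39 ± 0.17 log2, the largest gain of any member, so its course was a dip followed by a rise.

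AT4G07820 encodes a secreted protein of the CAP superfamily, to which the defence protein PR-1 belongs. It was at 11.81, 11.56 and 11.68 log2 at 8 h of nitrate, against 10.82, 10.74 and 10.74 at 8 h of ammonium and 10.50, 10.28 and 10.71 before supply. All 3 nitrate samples lay at least 0.74 above every other sample. The rise was 1.19 ± 0.11 (2.27-fold) over the roots before supply and 0.91 ± 0.11 over 8 h of ammonium, and the values at 1.5 h were 0.08 ± 0.11 with nitrate and 0.05 ± 0.11 with ammonium.

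AT5G51630 encodes a TIR-NBS-LRR protein, of the class of intracellular immune receptors. It was at 8.78, 8.68 and 8.82 log2 at 8 h of nitrate, against 7.44, 7.63 and 7.52 at 8 h of ammonium and 7.33, 7.42 and 7.35 before supply. The gap between the lowest nitrate value and the highest of the other 12 samples was 0.83. The difference was 1.40 ± 0.08 (2.63-fold) from the roots before supply and 1.23 ± 0.08 from 8 h of ammonium, after 0.33 ± 0.08 at 1.5 h of nitrate.

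AT5G59650 encodes a leucine-rich repeat receptor kinase, a membrane protein with an extracellular repeat domain. Its values were 8.29, 8.43 and 8.45 log2 at 8 h of nitrate, against 7.83, 7.74 and 7.74 at 8 h of ammonium and 7.66, 7.53 and 7.34 before supply. The rise was 0.88 ± 0.11 (1.84-fold) over the roots before supply. At 0.62 ± 0.11, its difference between the ions at 8 h was the smallest of the 23 members.

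AT5G60760 encodes a P-loop protein related to 2-phosphoglycerate kinase. It was at 10.49, 10.65 and 10.79 log2 at 8 h of nitrate, against 8.92, 8.99 and 9.05 at 8 h of ammonium and 9.26, 9.24 and 9.22 before supply. The ammonium samples lay below all samples before supply and the nitrate samples above them. The difference between the ions at 8 h, 1.66 ± 0.09 (3.15-fold), was the largest of the 23 members, and that from the roots before supply was 1.40 ± 0.09. The gene was also apart at 1.5 h, with 0.38 ± 0.09 for nitrate and −0.27 ± 0.09 for ammonium. All its nitrate samples then lay above all its ammonium samples, though the ions were not tested against each other at that time. Among the members with 1 listed gene, the same order without overlap held for SFP1, AT3G55410, AT5G51630, AT5G59650 and AT4G02850. In AT4G07820, XTH20 and AT5G14650 the samples of the 2 ions overlapped at 1.5 h.

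AT4G02850 encodes a protein of the PhzC/PhzF family, named after bacterial enzymes of phenazine synthesis. It was at 9.18, 9.41 and 9.24 log2 at 8 h of nitrate, against 7.75, 8.34 and 8.11 at 8 h of ammonium and 8.47, 8.30 and 8.53 before supply. The difference was 0.85 ± 0.12 (1.80-fold) from the roots before supply and 1.21 ± 0.12 (2.31-fold) from 8 h of ammonium, where the gene was at −0.36 ± 0.12 relative to the roots before supply.

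**Figure D2:**
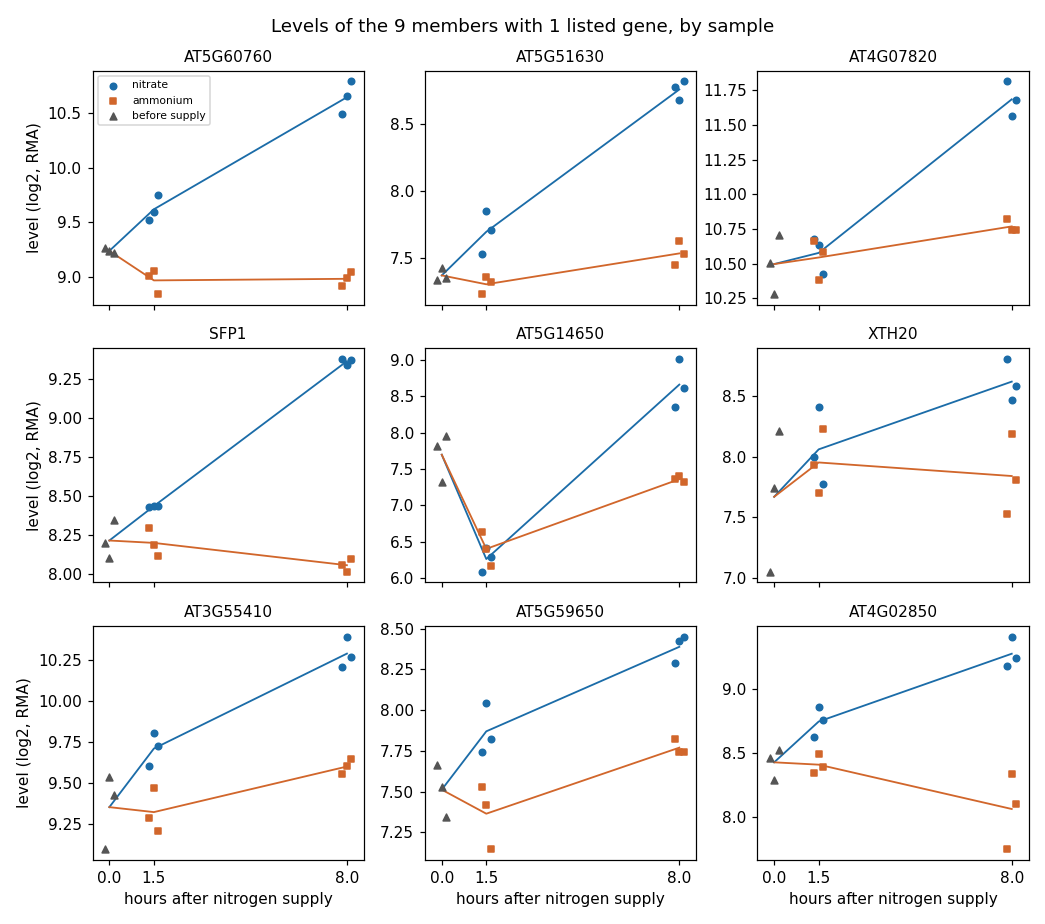
Level (log2, RMA) of the 9 members with 1 listed gene against hours after nitrogen supply. Points are samples (circles nitrate, squares ammonium, triangles before supply, 3 per group, spread sideways for legibility) and lines join group means, with the roots before supply as the shared start. In every panel the 3 samples at 8 h of nitrate are the highest, AT5G14650 dips at 1.5 h with both ions, and XTH20 has the widest spread before supply.

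Of the 13 members without a listed gene, the probe sets 265897_at and 248898_at had the largest rises. The probe set 265897_at had the largest rise of all members, 1.46 ± 0.10 (2.75-fold), with 10.90, 10.75 and 10.90 log2 at 8 h of nitrate, against 9.60, 9.71 and 9.27 at 8 h of ammonium and 9.46, 9.36 and 9.35 before supply. Like AT5G14650 it was low at 1.5 h with both ions, by −0.34 ± 0.10 with nitrate and −0.60 ± 0.10 with ammonium. The probe set 248898_at was at 7.49, 7.69 and 7.70 at 8 h of nitrate, against 6.40, 6.40 and 6.49 at 8 h of ammonium and 6.02, 6.40 and 6.33 before supply, a rise of 1.37 ± 0.11. The other 11 rose by 0.80 log2 or more (median 0.88), with means before supply of 5.71 to 8.94. The probe set listed for several genes, 249477_s_at, was at 12.07, 12.06 and 12.03 at 8 h of nitrate, against 11.45, 11.32 and 11.30 at 8 h of ammonium and 11.14, 11.15 and 11.18 before supply (0.90 ± 0.07).

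Many members depended on single libraries. Of the 23, 16 no longer met the conditions in at least 1 of the 15 sets that leave out 1 sample, 8 of them in a set without 1 of the samples at 8 h of nitrate. The probe set 247925_at, singled out after its values were seen, had the widest spread at 8 h of nitrate, at 7.42, 6.54 and 5.79 log2, against 4.71, 5.42 and 5.71 at 8 h of ammonium and 5.71, 5.66 and 5.74 before supply. Its nitrate samples overlapped those of 1.5 h of ammonium (5.99, 5.73 and 5.86), the sole overlap among the 23, and without nitrate replicate 1 it no longer met the conditions. At this level it was not shown to be above background in every sample.

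**Figure D3:**
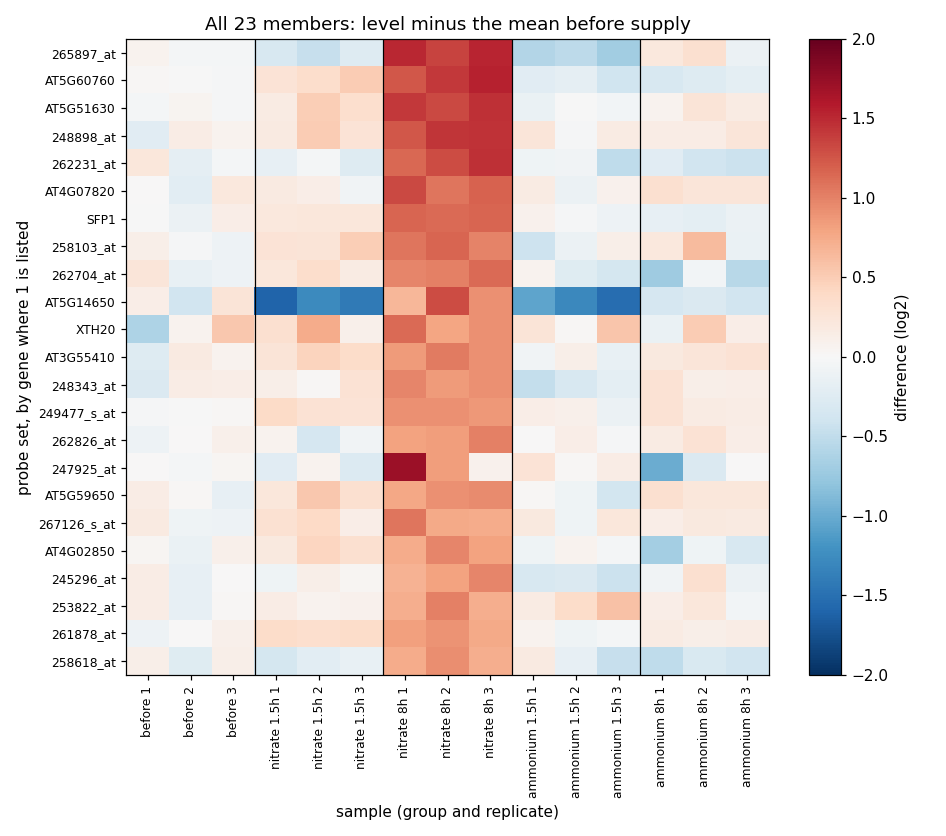
Level of all 23 members in each of the 15 samples minus the member's mean before supply (colour, log2, red higher and blue lower). Rows are probe sets in order of the rise at 8 h of nitrate, named by gene where 1 is listed, and columns are samples by group and replicate. The 3 columns of 8 h of nitrate are red throughout, palest in replicate 3 of 247925_at, and AT5G14650 is blue in all 6 samples at 1.5 h.

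How late the rise was differed between members. At 1.5 h of nitrate the differences from the roots before supply ran from −1.43 to 0.39 log2 with a median of 0.25, and 10 of the 23 lay within 0.1 of the limit of 0.4. Limma called 7 members higher at that time (5.97% of all probe sets were so called) and 2 lower (7.29%). The 7 were AT5G60760, AT5G51630, SFP1, AT3G55410, AT5G59650, 249477_s_at and 261878_at. Since the conditions used this contrast, the calls are a description. The 2 lower ones were AT5G14650 and 265897_at. At 1.5 h of ammonium the differences ran from −1.29 to 0.38 (median −0.03), with 1 member called higher (253822_at, 5.97% of all probe sets) and 2 lower (AT5G14650 and 265897_at again, 7.83%). With the replicate number as a block, 0 were called higher and 3 lower in this comparison.

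At 8 h of ammonium the members lay between −0.44 and 0.27 log2 of the roots before supply (median 0.14). Limma called 0 of the 23 in either direction there, beside 7.72% of all probe sets called higher and 9.91% lower, and at an unadjusted p under 0.05 it had 4 higher and 6 lower. The conditions set no lower limit here. For 6 of the 23 members the ammonium difference was −0.3 or lower, as it was for 2030 of all 22746 probe sets. These 6 included AT4G02850 (−0.36), AT5G14650 (−0.34) and 262704_at (−0.44 ± 0.15), the last chosen after its values were seen. In those the difference between the ions exceeded the rise itself, as for 262704_at with 1.47 ± 0.15 between the ions and 1.03 ± 0.15 over the roots before supply. These comparisons share the 3 samples before supply, so a high or low value there moves all of them together.

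Many members lay near a limit of the conditions. The rise of 10 members was within 0.1 of 0.8, the 8 h ammonium value of 5 was within 0.1 of 0.3, and 6 members were farther than 0.1 from all 4 limits. Just inside the limit of 0.8 among the members with 1 listed gene were AT4G02850 (0.85), AT5G59650 (0.88) and AT3G55410 (0.94). Just outside it were the probe sets 246550_at (0.79), 264719_at (0.78) and 253828_at (0.75), which met every other condition. Of the members with 1 listed gene, SFP1 alone met the conditions in all 15 sets that leave out 1 sample, while AT5G60760, AT5G51630 and AT4G07820 met them in 14. AT5G60760 and AT5G51630 dropped out without replicate 1 of 1.5 h of nitrate, and AT4G07820 without replicate 3 before supply.

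Measured relatives of the members were compared with them to see whether families moved as a whole. The lists were written once the members were known, and of 54 relatives with a probe set for 1 gene, limma called 12 higher and 8 lower at 8 h of nitrate than before supply, beside 8.93% and 11.7% of all probe sets. The XTH family had 0 of 8 relatives called higher and 3 lower by limma (1 higher and 3 lower at an unadjusted p under 0.05), and their median was 0.07 log2. XTH16 fell by 0.44 ± 0.08 (adjusted p = 0.0013), XTH26 by 0.47 ± 0.09 (adjusted p = 0.0019) and XTH19 by 0.37 ± 0.11 (adjusted p = 0.028). XTH18 was at 10.18 ± 0.15 at 8 h of nitrate and 10.09 ± 0.04 before supply (SD, n = 3 each, limma's adjusted p = 0.56). Between the ions at 8 h, 5 of these 8 were higher with nitrate and none lower (5.4% and 5.28% of all probe sets), with XTH21 at 0.59 ± 0.10 (adjusted p = 0.00062). At 8 h of ammonium 5 of the 8 had fallen relative to the roots before supply and 0 had risen by limma (0 higher and 7 lower at an unadjusted p under 0.05), with a median of −0.36. XTH21 itself was at 0.26 ± 0.10 with nitrate (adjusted p = 0.082) and fell by 0.33 ± 0.10 with ammonium (adjusted p = 0.026).

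Among 9 measured ERD6-like sugar porters other than SFP1, 3 rose and 3 fell at 8 h of nitrate. AT5G18840 rose by 0.98 ± 0.12 with nitrate (adjusted p = 1.1e-05) but by 2.21 ± 0.12 with ammonium at 8 h (adjusted p = 2.9e-09), so it was lower with nitrate than with ammonium by 1.23 ± 0.12 (−1.23, adjusted p = 1.9e-06). AT1G54730 shared the direction of SFP1 at 8 h, with 0.49 ± 0.08 over the roots before supply (adjusted p = 0.00034) and 0.48 ± 0.08 over 8 h of ammonium (adjusted p = 0.00081). Its rise was early, with 0.38 ± 0.08 at 1.5 h of nitrate (adjusted p = 0.0048). From 1.5 h to 8 h of nitrate it changed by 0.12 ± 0.08 (adjusted p = 0.44). SFP2, the gene next to SFP1, was at 5.08 ± 0.26 at 8 h of nitrate and 4.81 ± 0.09 before supply (SD, n = 3 each, limma's adjusted p = 0.12), a level not shown to be above background.

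Of the 2-oxoglutarate dehydrogenase complex, 1 of 3 other measured genes rose at 8 h of nitrate. AT4G26910, an E2 subunit gene, rose by 0.45 ± 0.06 with nitrate (adjusted p = 6.6e-05) and by 0.34 ± 0.06 with ammonium (adjusted p = 0.0012), and the ions differed by 0.11 ± 0.06 (adjusted p = 0.34). The second E1 gene, AT5G65750, was at 7.27 ± 0.04 at 8 h of nitrate and 7.12 ± 0.05 before supply (SD, n = 3 each, limma's adjusted p = 0.14). The other E2 gene, AT5G55070, was at 10.64 ± 0.05 and 10.49 ± 0.07 in the same groups (n = 3 each, limma's adjusted p = 0.16).

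Polygalacturonases had 3 of 10 relatives higher and 1 lower at 8 h of nitrate, and 4 of the 10 were higher with nitrate than with ammonium at 8 h. AT1G23460 rose by 0.55 ± 0.08 (adjusted p = 8.9e-05) and was 0.50 ± 0.08 above 8 h of ammonium (adjusted p = 0.00043). AT2G43880 and AT3G59850 also stood above 8 h of ammonium, but were at −0.20 ± 0.10 and −0.18 ± 0.11 with nitrate (adjusted p = 0.2 and 0.34). With ammonium they were at −0.82 ± 0.10 and −0.58 ± 0.11 (adjusted p = 3.9e-05 and 0.0019). AT2G43890 had the widest difference between the ions, 1.47 ± 0.16 (adjusted p = 8.7e-06), made up of a rise of 0.51 ± 0.16 with nitrate (adjusted p = 0.03) and a change of −0.96 ± 0.16 with ammonium (adjusted p = 0.00048). At 1.5 h, where AT5G14650 dipped, limma called 2 of the 10 relatives lower with nitrate and 3 with ammonium, and 0 higher (7.29% and 7.83% of all probe sets were lower). AT2G43880 was then at −0.58 ± 0.10 with nitrate and −1.68 ± 0.10 with ammonium (adjusted p = 0.001 and 2.7e-08). AT3G59850 was at −0.55 ± 0.11 and −1.35 ± 0.11 (adjusted p = 0.0034 and 8.4e-07), and AT2G43890 at −0.40 ± 0.16 and −2.01 ± 0.16 (adjusted p = 0.12 and 4.2e-07). In the CAP superfamily 3 of 18 relatives of AT4G07820 rose at 8 h of nitrate, and 1 fell, AT4G31470, at −0.28 ± 0.10. AT4G30320 rose by 0.55 ± 0.11 (adjusted p = 0.0016), AT4G33730 by 0.51 ± 0.11 (adjusted p = 0.0031) and AT4G25790 by 0.44 ± 0.10 (adjusted p = 0.0032). Of these, AT4G25790 was also above 8 h of ammonium, by 0.39 ± 0.10 (adjusted p = 0.015). AT4G30320 and AT4G33730 were already higher at 1.5 h of nitrate, by 0.45 ± 0.11 and 0.54 ± 0.11 (adjusted p = 0.0097 and 0.003). From 1.5 h to 8 h of nitrate, limma called no change in AT4G30320, AT4G33730 or AT4G25790 (adjusted p = 0.68, 0.92 and 0.26). AT4G30320 also rose with ammonium at 8 h, by 0.38 ± 0.11 (adjusted p = 0.025).

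For the other members with relatives on the array, the neighbouring kinase genes AT5G59660 and AT5G59670 were at 0.02 ± 0.11 and 0.07 ± 0.11 log2 (limma's adjusted p = 0.93 and 0.75), and AT5G59680 rose by 0.42 ± 0.08 with nitrate (adjusted p = 0.001) and by 0.56 ± 0.08 with ammonium (adjusted p = 0.00012). AT4G02860, which lies next to AT4G02850 and belongs to the same PhzC/PhzF family, was at 0.05 ± 0.07 (adjusted p = 0.66). The third measured gene of that family, AT1G03210, rose by 0.35 ± 0.07 with nitrate (adjusted p = 0.0011) and was 0.22 ± 0.07 above 8 h of ammonium (adjusted p = 0.042). AT3G45090, the relative of AT5G60760, was at 0.01 ± 0.08 (adjusted p = 0.96). The 54 relatives were counted without the members, so by construction none of them met the conditions.

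**Figure D4:**
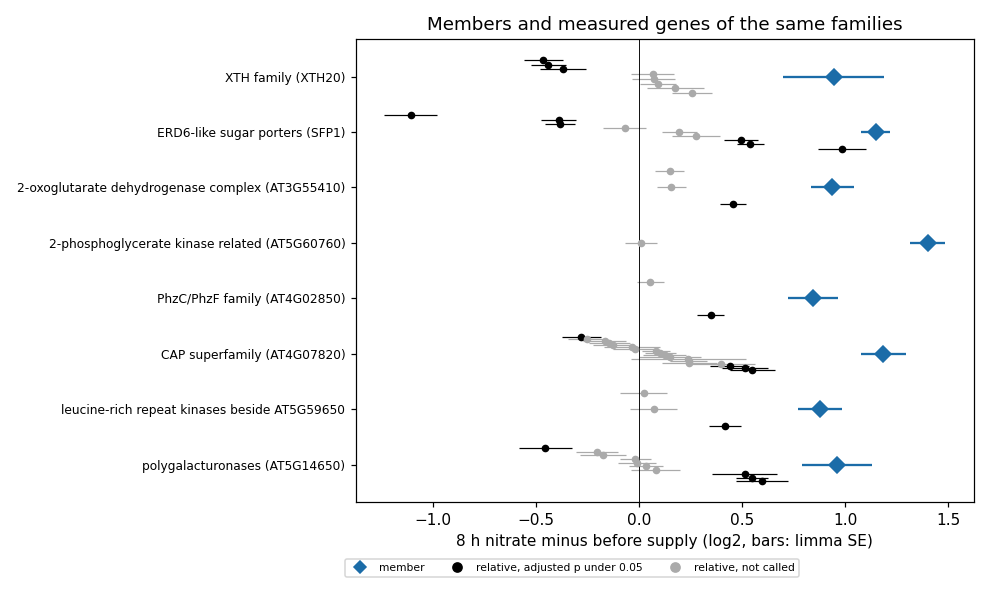
Difference between 8 h of nitrate and the roots before supply (horizontal axis, log2) for 8 members (diamonds) and for measured genes of the same families (circles, black where limma's adjusted p was under 0.05). Bars are limma's standard error, with 3 samples per group. Each member lies right of all its measured relatives, but the members were chosen for a rise of at least 0.8 and the relatives were not. AT5G18840 has the largest value among the relatives, 0.98.

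Position on the chromosomes was looked at through the order of genes in RefSeq (assembly TAIR10.1). By their locus names 6 of the 9 genes lie on chromosome 5, which holds 22.4% of the probe sets with 1 gene, 2 on chromosome 4 (14.6%) and 1 on chromosome 3 (20.4%). With 9 genes this is a count and no more. Of the 2 coding genes on each side of the 9 members, 16 had a probe set for 1 gene, and limma called 0 of these higher and 1 lower at 8 h of nitrate (1 higher and 3 lower at an unadjusted p under 0.05, 8.93% and 11.7% of all probe sets called). Their differences from the roots before supply ran from −0.29 to 0.28 log2. AT5G60760 lies next to the nitrate transporter genes NRT2.4 and NRT2.3 in that order, and neither of these was analysed here.

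Genes of pathways that respond to nitrate, time or root tissue were set beside the members, and 25 of 192 had a probe set for 1 gene. Limma called 12 of the 25 higher and 4 lower at 8 h of nitrate than before supply, beside 8.93% and 11.7% of all probe sets. None of the 25 is a member. The clock-linked genes were 3 of 3 higher, with COR28 at 2.54 ± 0.12 with nitrate (adjusted p = 3.8e-10) and 2.37 ± 0.12 with ammonium (adjusted p = 2.4e-09), and COR27 at 2.54 ± 0.13 and 2.65 ± 0.13 (adjusted p = 1e-09 and 1.9e-09). Neither differed between the ions at 8 h by limma (adjusted p = 0.48 and 0.7). Root tissue markers were 3 of 4 higher. The other marker, the gene CO2, was at −0.18 ± 0.14 with nitrate (adjusted p = 0.45) and −0.23 ± 0.14 with ammonium (adjusted p = 0.31). PYK10 rose by 0.58 ± 0.08 with nitrate (adjusted p = 4.1e-05) and 0.61 ± 0.08 with ammonium (adjusted p = 4.7e-05), and the root hair expansin gene EXPA18 by 0.47 ± 0.10 and 0.44 ± 0.10 (adjusted p = 0.0038 and 0.0074). EXPA7, another root hair expansin gene, rose by 0.38 ± 0.12 with nitrate (adjusted p = 0.028) and was 0.30 ± 0.12 above 8 h of ammonium (adjusted p = 0.13). The part of these markers in the members' rise was not tested.

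Of the remaining lists, cytokinin genes had 1 of 2 higher, the response regulator gene ARR16 (0.41 ± 0.09, adjusted p = 0.0047), at a level of 3.73 ± 0.19 at 8 h of nitrate that was not shown to be above background. ARR16 was also 0.40 ± 0.09 above 8 h of ammonium (adjusted p = 0.01) and at −0.01 ± 0.09 at 1.5 h of nitrate (adjusted p = 0.96), a course like that of the members at less than the required size. Nitrate response regulators were 3 of 3 higher and the assimilation and reductant list 2 of 2, and all 5 of these genes were also called higher at 1.5 h of nitrate. Nitrate transport genes, 3 measured of 21 listed, were 3 of 3 lower, and all 3 were also called lower at 8 h of ammonium. NRT2.5 was at −6.05 ± 0.16 with nitrate and −2.45 ± 0.16 with ammonium. NPF2.3 was at −0.57 ± 0.15 and −1.03 ± 0.15, and NPF6.2 at −0.66 ± 0.14 and −0.91 ± 0.14. Iron deficiency genes had 1 of 4 lower, the regulator gene BHLH101 (−1.01 ± 0.12, adjusted p = 1.2e-05). BHLH101 was also lower at 8 h of ammonium (−0.74 ± 0.12, adjusted p = 0.0004), and limma called no difference between the ions there (adjusted p = 0.19). Its level of 3.86 ± 0.18 at 8 h of nitrate was not shown to be above background. The Casparian strip and suberin list and the flavonoid list had 1 measured gene each, SGN3 (adjusted p = 0.93) and DFR (adjusted p = 0.92), neither of them called. The aquaporin, sulfur and phosphate lists had no gene with such a probe set.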

How the data were processed

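Total RNA of 15 root samples was hybridised to ATH1 arrays. The values used are the deposited log2 expression values, made by the authors with RMA, and the submitters' processing notes also name limma. Versions and settings were not given in the sources used here. The log base was read from the range of the values (2.45 to 13.96), and 0 columns were left unused.

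Samples were grouped by the labels. Members were found on group means. Limma 3.58.1 (R 4.3.3) was fitted to all 22746 probe sets with 5 groups (lmFit, eBayes), with Benjamini-Hochberg adjustment over all of them and a threshold of 0.05. Every adjusted p given comes from this fit, and ± after a difference is its standard error. Tables were made with Python 3.11.15, and the fit was tested on simulated data. With 3 arrays per group the number of arrays limits the precision.

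The members and lists were chosen with earlier results of these data known, and the lists of relatives were written once the members were known. The genes named include all members with 1 listed gene and the 2 unlisted members of largest rise. They also include the 3 members with 1 listed gene nearest the limit of 0.8 and the 3 probe sets just outside it. Of each list, up to 2 called genes were named beside the members, or 3 for the nitrate transport and root marker lists. Genes of the regulator and assimilation lists were counted there without names, and some list genes are named only among the flagged results below. Other genes of the families, and the markers beside them, were chosen to show their range. The annotation listed 1 gene for 13513 probe sets, several for 503 and none for 8730, and 13436 of the first matched RefSeq. Family words were sought in symbols and synonyms alone, since gene descriptions were not used here. Of 13 families, the words for cell wall proteins and for hydrolases matched 1 member each, of 42 and 39 probe sets, and the other 11 matched none. Promoter motifs were planned but not searched, as no sequences were used here. Same-numbered samples deviated together (all 3 correlations over 0.1) in 1 of 10 pairs of groups, 1.5 h of ammonium and before supply, with correlations of 0.3, 0.101 and 0.185. The labels do not say what the numbers mark.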

Additional observations from a re-analysis of the deposited data

Results flagged for a closer look

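For the 6 genes described here, all from the lists set beside the members, the change from 1.5 h to 8 h differed between the ions by limma's interaction term. The term was also called for the regulator gene HHO2 (0.58 ± 0.15, adjusted p = 0.034) and the clock-linked gene GI (−0.45 ± 0.11, adjusted p = 0.031). A further called gene was F6'H1 of the iron list (−0.45 ± 0.11, adjusted p = 0.03). The share of all probe sets called on this term is not given here. Each value is the change with nitrate minus the change with ammonium, on the log2 scale. Among the XTH genes it was 0.57 ± 0.15 for XTH33 (adjusted p = 0.038), with 0.36 for nitrate and −0.21 for ammonium. XTH16 had 0.70 ± 0.12 (adjusted p = 0.003), with 0.92 for nitrate and 0.22 for ammonium. XTH18 had 0.83 ± 0.13 (adjusted p = 0.0014), with 0.20 for nitrate and −0.63 for ammonium. The sugar porter gene AT5G18840 had −1.50 ± 0.16 (adjusted p = 0.00011), with a decrease for nitrate and 0.51 for ammonium. The nitrate transporter gene NRT2.5 had −3.67 ± 0.23 (adjusted p = 3.1e-07), with −5.51 for nitrate and −1.83 for ammonium. The nitrate response regulator gene HHO3 had 0.86 ± 0.16 (adjusted p = 0.0068), with 0.09 for nitrate and −0.77 for ammonium. No group had enough samples for a check of single outlying samples.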

How the results depend on the processing

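The number of members depended on the limits. It was 13 with a rise of at least 0.9, 33 with 0.7, 11 with the other limits 0.1 lower and 32 with them 0.1 higher. It was 25 with no minimum level and 22 with a minimum of 7. Centring the samples gave 25 (22 shared with the 23), a further quantile normalization 24 (22 shared) and group medians 27 (18 shared). Leaving out each sample in turn gave 18 to 27, the lowest without replicate 2 of 8 h of nitrate, and a median rise of 0.91 to 0.98. The rise of no member reversed in 391 alternatives, a count over members and settings together. Since the members were chosen for a rise of at least 0.8, a reversal was hardly possible, and the count is no check of the rise. Leaving out samples gave 3845 to 4615 called probe sets for 8 h of nitrate over the roots before supply, 1970 to 3126 over 1.5 h of nitrate and 1817 to 2850 over 8 h of ammonium. Relative to before supply it gave 3158 to 4064 for 8 h ammonium, 2227 to 3035 for 1.5 h nitrate, 2329 to 3184 for 1.5 h ammonium and 14 to 16 for the pathway lists.

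Of 30 same-numbered pairs of samples, 14 had correlated deviations over 0.1 and 15 correlated best with their own number, so a pairing was not established. Between 1.5 h of ammonium and before supply, replicate 2 stood at 0.101 and did not correlate best with its own number. With the replicate number as a block, 5071 probe sets were called for 8 h of nitrate over the roots before supply, 2989 over 1.5 h of nitrate and 2674 over 8 h of ammonium. Relative to before supply the block gave 4457 for 8 h ammonium, 3302 for 1.5 h nitrate, 3482 for 1.5 h ammonium and 17 for the pathway lists. Of the 23 members, the block gave 22 called higher with 8 h nitrate (23 without it), and 2 higher and 2 lower with 8 h ammonium (0 and 0 without it). Alternatives for 8 h of ammonium over the roots before supply, for both 1.5 h comparisons, for the pathway lists and for single members were chosen after seeing the data. RMA values carry no detection calls, so low levels may be background.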
